A study of Mus musculus with 2 samples.

Results

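The 9 effectors of the canonical Wnt pathway were compared between the 129 and the cas allele in nuclear RNA of F121-6 cells. They were the transcription factor genes Lef1, Tcf7, Tcf7l1 and Tcf7l2, the coactivator gene Ctnnb1, and Axin2, Apc, Gsk3a and Gsk3b of the complex that degrades its protein. Members were chosen by name, and all 9 had 1 row each among the 48550 rows of the table. F121-6 cells are female embryonic stem (ES) cells of the mouse from a hybrid cross, with 1 chromosome set of the 129 strain and 1 of castaneus (cas). The cells were grown in serum with the cytokine LIF on mouse embryonic fibroblasts (MEFs) that mitomycin C had stopped from dividing. The samples formed 1 group of 2 libraries with no other treatment, and the comparison lay between the alleles within each library. The labels give neither which strain was the mother nor the strain of the fibroblasts, and they do not say that the libraries came from separate cultures. The spread between libraries, and p-values that rest on it, may therefore be technical.

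In the canonical pathway, a Wnt ligand binds a Frizzled receptor and an Lrp5 or Lrp6 co-receptor at the cell surface. Without ligand, Axin and Apc hold β-catenin, the product of Ctnnb1, for phosphorylation by the Gsk3 kinases, after which it is degraded. With ligand, β-catenin builds up, enters the nucleus and joins TCF/LEF proteins on the DNA of target genes. In mouse ES cells the pathway supports self-renewal, and Tcf7l1 is known there mainly as a repressor of pluripotency genes that β-catenin relieves.

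Library 1 held 28523744 reads assigned to an allele and library 2 held 31402765. A gene was tested when it had at least 20 such reads in each library, which held for 15509 genes and for all 9 effectors. The 129 allele received 53.6% of these reads in library 1 and 54.2% in library 2. Ratios were scaled so that the typical gene is even, which shifts them further than these totals would. On this scale an even gene has 55.3% of its reads from 129 in library 1 and 56.0% in library 2. Ratios are log2(129/cas) of CPM (reads scaled to the size of their column) plus 0.1, so that a positive value is higher from 129. The term called is used for an adjusted p under 0.05 in limma (Benjamini-Hochberg, over all tested genes). Of 10 ES cell markers, 9 were tested and Sox2 was listed at 0 reads. Together the 10 took 0.329% and 0.313% of the reads. A count of 0 means that no read was assigned to an allele, and absence of RNA was not tested. Of 16 fibroblast markers, 13 were tested and 11 were higher from 129, with Lum and S100a4 at 0. The fibroblast list took 0.0311% and 0.0403% of the reads, 92.7% and 93.4% of them from 129. The part of feeder RNA in the ratios of the effectors was not tested. In such bulk RNA, fewer cells of a type and less RNA per cell cannot be told apart.

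Lef1 was the effector with a large allelic difference, and it was higher from cas. Tcf7l2 was higher from 129 by a small margin, and the other 7 were not called. Thus 2 of 9 effectors were called, 22.2%, against a background of 43.7% of all tested genes. In the single directions the count was 1 of 9 each, against 21.8% of tested genes higher from 129 and 21.8% higher from cas. The median log2 ratio of the 9 was -0.04, and that of all tested genes was 0.00.

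The promoter sequences of Lef1 and Tcf7l2 are shown because these are the called effectors and because RefSeq gives each of them an internal start beside the 5′ one. The outermost RefSeq starts of each gene are used. The table has 1 row per gene, so reads from the starts cannot be told apart. Each sequence is the 250 bases before a start, on the plus strand of build GRCm38.p6, from RefSeq, with CpG dinucleotides in capitals. They come from the reference strain and show neither allele's variants.
Lef1 5′ start, chr3:131110047-131110296: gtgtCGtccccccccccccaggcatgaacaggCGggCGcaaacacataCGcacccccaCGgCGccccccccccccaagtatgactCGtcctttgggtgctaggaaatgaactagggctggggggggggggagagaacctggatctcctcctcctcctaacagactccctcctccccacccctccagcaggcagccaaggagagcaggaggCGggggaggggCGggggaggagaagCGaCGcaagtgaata
Lef1 internal start, chr3:131156044-131156293: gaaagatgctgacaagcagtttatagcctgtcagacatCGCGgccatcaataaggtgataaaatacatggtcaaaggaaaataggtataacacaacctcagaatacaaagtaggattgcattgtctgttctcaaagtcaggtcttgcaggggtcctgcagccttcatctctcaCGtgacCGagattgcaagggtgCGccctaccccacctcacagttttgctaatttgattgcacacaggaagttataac
Tcf7l2 5′ start, chr19:55741560-55741809: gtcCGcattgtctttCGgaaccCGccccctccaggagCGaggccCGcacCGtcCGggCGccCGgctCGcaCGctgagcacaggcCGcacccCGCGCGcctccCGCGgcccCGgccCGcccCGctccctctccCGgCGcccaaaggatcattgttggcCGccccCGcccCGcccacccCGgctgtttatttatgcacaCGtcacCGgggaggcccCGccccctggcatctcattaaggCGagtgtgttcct
Tcf7l2 internal start, chr19:55895071-55895320: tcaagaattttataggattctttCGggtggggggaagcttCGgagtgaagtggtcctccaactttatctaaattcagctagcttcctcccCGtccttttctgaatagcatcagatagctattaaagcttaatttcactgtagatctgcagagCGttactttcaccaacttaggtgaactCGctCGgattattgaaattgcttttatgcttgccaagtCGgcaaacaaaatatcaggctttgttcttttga
The 5′ start of Lef1 lies 174 bp before the GENCODE gene start and the internal one 45.8 kb behind it. The 5′ sequence of Lef1 had 11 CpGs and 66.4% G and C, and its internal sequence 5 and 44.8%. For Tcf7l2 the 5′ sequence had 30 CpGs and 72.8% G and C, and the sequence 154 kb inside the gene 7 and 40.8%. The core of the motif that TCF/LEF proteins bind was searched as CTTTGAT on both strands in the 300-base RefSeq windows, which run from 250 bases before to 50 after a start. It occurred in 3.73% of 32851 windows, and in 0 of the 14 windows that the table holds for 8 of the effectors. These windows belong to Lef1, Tcf7, Tcf7l1, Tcf7l2, Ctnnb1, Axin2, Gsk3a and Gsk3b. The finding covers these letters in these windows only.

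Lef1 encodes a TCF/LEF factor that activates Wnt targets with β-catenin and is typical of cells leaving naive pluripotency. It lies on chromosome 3 (131110471 to 131224356, plus strand, mm10, ENSMUSG00000027985.14), and exons make up 7.72% of that span. Library 1 had 2143 reads from 129 and 5296 from cas. Library 2 had 2031 from 129 and 5394 from cas. The cas allele was therefore ahead in both libraries, and the 129 share was 28.8% (exact 95% binomial interval 27.8 to 29.9) and 27.4% (26.3 to 28.4), or 28.1% ± 1.03 (SD, n = 2). These intervals, like all others on shares, cover counting error only. The log2 ratio was -1.61 in library 1 and -1.76 in library 2. The limma estimate was -1.68 (SE 0.06, adjusted p = 4.1e-43), a 3.21-fold excess of cas (95% interval 2.95 to 3.49). Of all 15509 tested genes, 554 (3.57%) had a ratio as low or lower. Of the 838 genes with at least as many reads as Lef1, 13 (1.55%) did. The call of Lef1 was lost when no trend of variance with abundance was fitted (adjusted p = 0.052 in limma). That setting ended the call of every gene named here except Ror1.

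**Figure D1:**
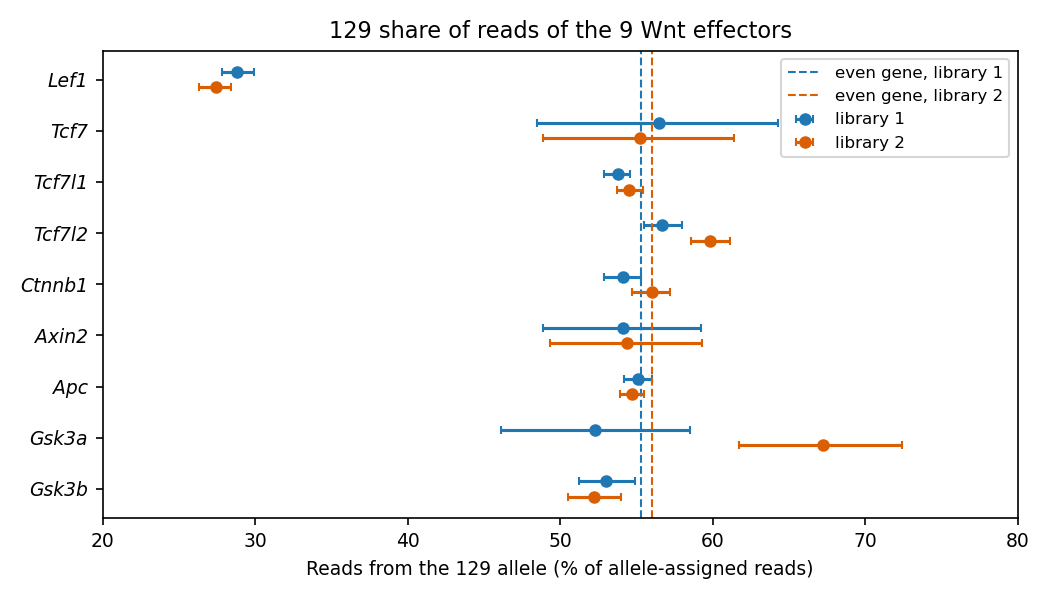
129 share of allele-assigned reads (x axis, percent) of each effector (y axis) in library 1 (blue) and library 2 (orange), with exact 95% binomial intervals, and the share of an even gene in each library as a dashed line. Lef1 sits at 28.8% and 27.4%, far left of the lines at 55.3% and 56.0%, while Gsk3a is at 52.3% in library 1 and 67.2% in library 2.

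Tcf7l2 encodes a TCF factor that serves as activator or repressor depending on its partners and is known in gut and pancreas. It lies on chromosome 19 (55741820 to 55933654, plus strand). Library 1 gave 3352 of its reads from 129 and 2555 from cas, against 3671 and 2463 in library 2. Both shares, 56.7% (55.5 to 58.0) and 59.8% (58.6 to 61.1), lay above that of an even gene, and their intervals did not overlap each other. The log2 ratios were 0.09 and 0.23, and the estimate was 0.16 (SE 0.06, adjusted p = 0.039 in limma), or 1.11-fold (95% interval 1.02 to 1.22). The call was lost without pairing the alleles by library (adjusted p = 0.39 in limma).

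Tcf7l1 (chromosome 6, 72626378 to 72789254, minus strand) had more reads than any other effector. The 129 allele had 6839 reads and the cas allele 5884 in library 1, against 7356 and 6134 in library 2. Its shares were 53.8% (52.9 to 54.6) and 54.5% (53.7 to 55.4), slightly below an even gene in both libraries. The log2 ratio was -0.09 in each library, with an estimate of -0.09 (95% interval -0.18 to 0.01, adjusted p = 0.13 in limma). An exact binomial test within each library, adjusted over all genes and passed in both, called it higher from cas (larger adjusted p = 0.0013), as it did for 23.0% of tested genes. By this test 4 of 9 effectors (Lef1, Tcf7l2, Tcf7l1 and Gsk3b) were called, against 45.7% of tested genes. The sign turned, to 0.24, when both alleles were given 1 shared library size.

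Tcf7 encodes TCF1, an activating TCF factor best known from T cells, and it was the effector with fewest reads. It lies on chromosome 11 (52252371 to 52283014, minus strand). Gm26551, a long noncoding RNA gene on the same strand, shares 17.1 kb of this 30.6 kb span. Gm26551 had 3306 reads over both libraries, against 420 for Tcf7. How reads of the shared part were assigned was not tested, and the read count of Tcf7 carries this limit. For Tcf7, library 1 had 91 reads from 129 and 70 from cas, while library 2 had 143 and 116. The shares of 56.5% (48.5 to 64.3) and 55.2% (48.9 to 61.4) included that of an even gene in their intervals. The estimate of 0.01 had a 95% interval of -0.57 to 0.59, which reaches a 1.51-fold excess of 129. The 129 share of Lef1 was thus under that of each of the other 3 TCF/LEF genes in both libraries, with no overlap of the intervals.

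Ctnnb1, the gene of β-catenin, links the pathway to the TCF/LEF factors and also serves in cell junctions. It lies on chromosome 9 (120929216 to 120960507, plus strand). The 129 allele had 3630 reads and the cas allele 3082 in library 1, while library 2 had 3350 and 2636. The 129 shares were 54.1% (52.9 to 55.3) and 56.0% (54.7 to 57.2), around that of an even gene. The estimate was -0.04 (95% interval -0.16 to 0.09, adjusted p = 0.67 in limma), an interval that reaches 1.12-fold on this scale. With 1 shared library size the ratio of Ctnnb1 was 0.29, outside that interval. Its last 5.16 kb overlap Ulk4, a kinase-like gene on the other strand that was higher from cas (-0.59, SE 0.08). The sources used here do not state if the counting used strand.

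In the degradation complex, Apc is the large scaffold, lost in many colon tumours. It lies on chromosome 18 (34220924 to 34322552, plus strand). Library 1 gave 6705 reads from 129 and 5459 from cas, and library 2 gave 7381 and 6113. The shares were 55.1% (54.2 to 56.0) and 54.7% (53.9 to 55.5), close to an even gene. The estimate of -0.04 had a 95% interval of -0.14 to 0.05, which reaches 1.10-fold on this scale. Apc thus had one of the narrowest intervals of the 9 effectors. Its ratio with 1 shared library size, 0.28, lay outside that interval.

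Axin2 is a scaffold of the same complex and a target of the pathway, often used as its reporter. It lies on chromosome 11 (108920349 to 108950783, plus strand). There were 205 reads from 129 and 174 from cas in library 1, against 218 and 183 in library 2. Its shares of 54.1% (48.9 to 59.2) and 54.4% (49.3 to 59.3) nearly coincided. The estimate was -0.08 (95% interval -0.50 to 0.34, adjusted p = 0.79 in limma), which leaves room for up to 1.41-fold.

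The kinase genes Gsk3a and Gsk3b encode close paralogs that act redundantly on β-catenin. Gsk3b (chromosome 16, 38089001 to 38246084, plus strand) had 1514 reads from 129 and 1340 from cas in library 1, against 1651 and 1510 in library 2. Its shares, 53.0% (51.2 to 54.9) and 52.2% (50.5 to 54.0), were below an even gene in both libraries. The estimate was -0.17 (95% interval -0.34 to -0.01), but its adjusted p of 0.081 in limma missed the threshold. The exact binomial test within each library called it higher from cas (larger adjusted p = 0.03), and with 1 shared library size its ratio was 0.15.

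Gsk3a (chromosome 7, 25228258 to 25237851, minus strand) was the effector whose libraries differed most. The reads were 137 from 129 and 125 from cas in library 1, against 207 and 101 in library 2. Its share was 52.3% (46.1 to 58.5) in library 1 and 67.2% (61.7 to 72.4) in library 2, with intervals that did not overlap. The log2 ratios had opposite signs, -0.17 and 0.68. The estimate of 0.25 (95% interval -0.25 to 0.76, adjusted p = 0.44 in limma) therefore describes neither library, and the SE behind it is shared with genes of like abundance.

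**Figure D2:**
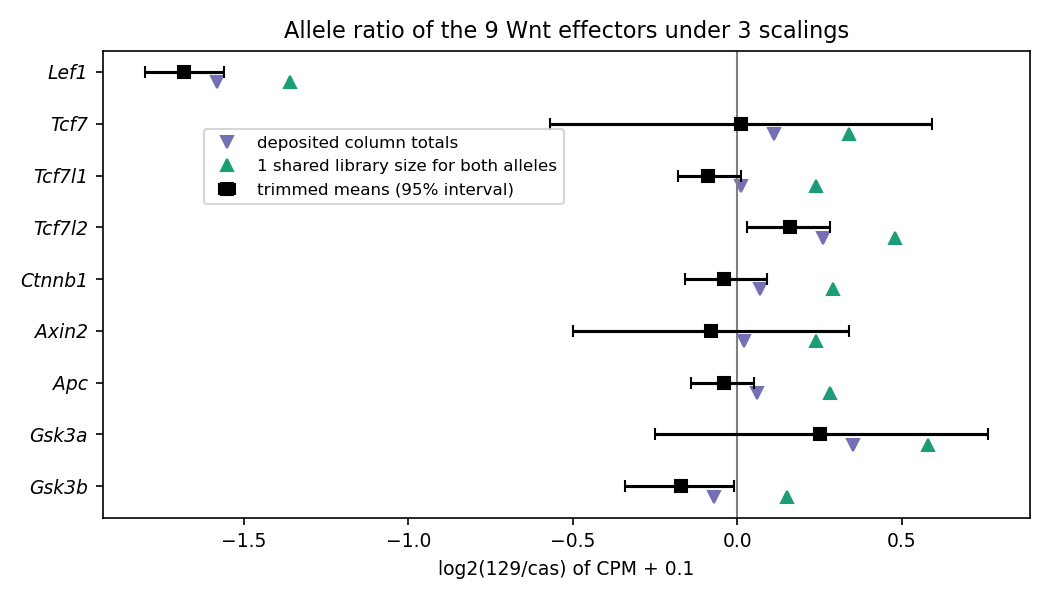
log2(129/cas) of CPM plus 0.1 (x axis) of each effector (y axis), as the limma estimate with its 95% interval (squares, columns scaled by trimmed means), with deposited column totals (down triangles) and with 1 shared library size (up triangles). Lef1 stays between -1.68 and -1.36, whereas Tcf7l1, Ctnnb1, Axin2, Apc and Gsk3b change sign with 1 shared library size.

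The scaling moved all genes together. With 1 shared library size the median of all tested genes was 0.32 and 81.3% of calls were higher from 129, against 50% on the main scale, and with deposited column totals these values were 0.10 and 61.9%. Relative to that median, Lef1 stood at -1.68 under both, and Tcf7l2 at 0.16 under both. With 1 shared library size 6 of 9 effectors were called, against 51.6% of all tested genes, and 5 of these 6 (Apc, Ctnnb1, Gsk3a, Tcf7l1 and Tcf7l2) were higher from 129.

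The levels of the effectors were set side by side as allele-assigned CPM of the library per kb of annotated gene span. These levels also depend on how many SNPs a gene holds, which the sources used here do not give. The rows list windows of 5000 bp, and the sources do not state that reads were counted over the whole span. For Tcf7, the overlap with Gm26551 is a further limit. Ctnnb1 was highest, with levels of 7.52 in library 1 and 6.09 in library 2. It was followed by Apc at 4.20 and 4.23, Tcf7l1 at 2.74 and 2.64, and Lef1 at 2.29 and 2.08. Among the TCF/LEF genes, Tcf7l1 and Lef1 thus had the higher levels, above Tcf7l2 at 1.08 and 1.02 and Tcf7 at 0.184 and 0.269. Gsk3a had 0.957 and 1.02, Gsk3b 0.637 and 0.641, and Axin2 0.437 and 0.420. In this order only the neighbours Tcf7l2 and Gsk3a were not separated by the spread of their libraries. That spread does not cover the limits given above.

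The genes around Lef1 were mostly higher from 129 or not called. Within 500 kb of its span, a distance chosen after the values were seen, 10 other genes were tested. Of these 5 were higher from 129, 1 was higher from cas and 4 were not called, against 21.8% of all tested genes called in each direction. Their median log2 ratio was 0.83. The medians of the same windows around the other 8 effectors ran from -0.59 (5 genes around Ctnnb1) to 0.42 (10 genes around Gsk3b). The nearest tested gene behind Lef1, Hadh, a mitochondrial fatty acid oxidation enzyme 9.06 kb away, had 595 and 870 reads from 129 and 521 and 772 from cas. Its ratio was -0.14 (SE 0.12, adjusted p = 0.33 in limma). On the other side, 173 kb away, 2010110G14Rik gave 54 and 79 reads for the 129 allele and 10 and 7 for cas (2.46, SE 0.58). The best covered gene of the window after Lef1 was Sgms2, a sphingomyelin synthase gene. The 129 allele gave 2016 and 1867 reads in the libraries and the cas allele 463 and 381, a ratio of 1.88 (SE 0.10, adjusted p = 5.2e-30 in limma). Sgms2 and Lef1, whose starts lie 380.9 kb apart, therefore had their excess on different alleles in both libraries. Papss1, for sulfate activation, was higher from 129 with 0.78 (SE 0.11), from 0.47 in library 1 and 1.09 in library 2. Also higher from 129 were 4930534D22Rik (3.56, SE 0.83) and Etnppl (3.03, SE 0.97), both with few reads. Rpl34, a ribosomal protein gene, was the one higher from cas, with -0.27 (adjusted p = 0.042 in limma), and its ratio was 0.05 with 1 shared library size. Its call was lost without pairing the alleles by library (adjusted p = 0.21 in limma). Ostc (0.12), Gm42997 (-0.46) and Cyp2u1 (0.87) were not called.

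**Figure D3:**
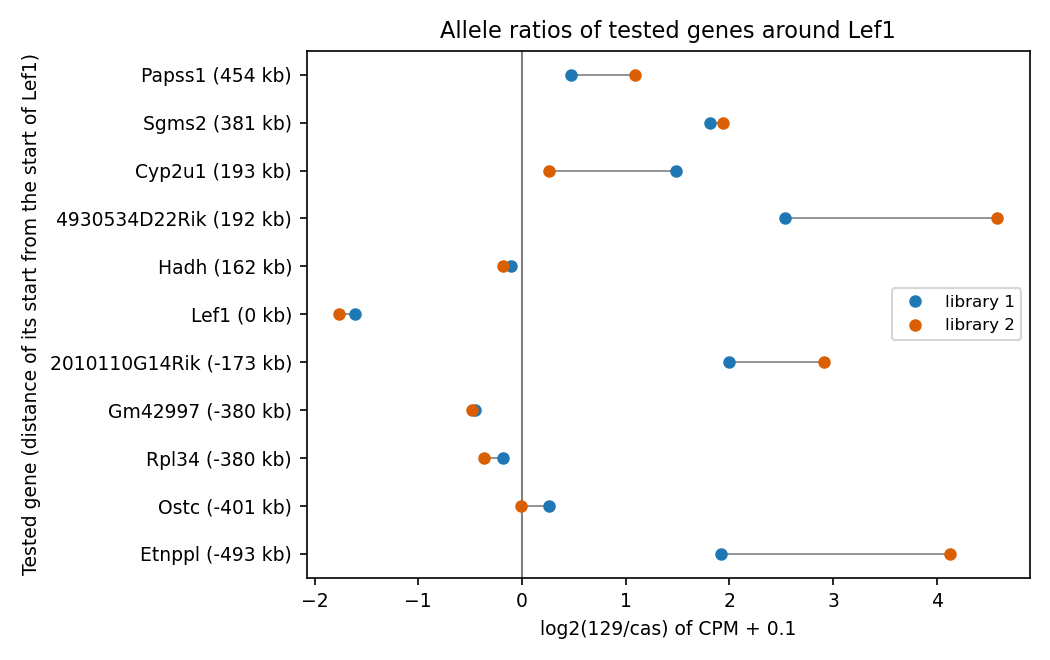
log2(129/cas) of CPM plus 0.1 (x axis) in library 1 (blue) and library 2 (orange) of Lef1 and the 10 other tested genes within 500 kb, ordered by the distance of their starts from that of Lef1 (y axis). Lef1 lies at -1.61 and -1.76, whereas Sgms2 lies at 1.81 and 1.94 and Hadh at -0.11 and -0.18.

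Of the 18 nearest tested genes of the 9 effectors, 1 on each side, 4 (22.2%) were called, against 43.7% of all tested genes. Besides 2010110G14Rik these were Vdac1 near Tcf7 (0.34, SE 0.10), Kcmf1 near Tcf7l1 (-0.30, SE 0.07, and 0.02 with 1 shared library size) and Cep112 near Axin2. Vdac1 and Kcmf1 lost their calls without pairing the alleles by library (adjusted p = 0.16 and 0.079 in limma). Cep112, a centrosomal protein gene 59.7 kb before Axin2, gave 1980 and 2397 reads for the 129 allele and 3075 and 3291 for cas, a ratio of -0.87 (SE 0.07, adjusted p = 6.5e-21 in limma). Axin2 itself had -0.08. Not called were Jade2 (-0.35) near Tcf7, Tgoln1 (0.23) near Tcf7l1, and 4930552P12Rik (0.30) near Tcf7l2. The same held for Rpl14 (-0.19) and Trak1 (0.00) near Ctnnb1, Rgs9 (-0.01) near Axin2, and Epb41l4a (-0.01) and Srp19 (0.37) near Apc. It also held for Zfp526 (-0.98) and Erf (-0.27) near Gsk3a, and Pla1a (-0.34) near Gsk3b. Of 19 annotated genes with a row that overlap an effector, 13 had 0 reads and, besides Ulk4, only Gm26551 was tested. Gm26551, a long noncoding RNA gene on the strand of Tcf7, shares 17.1 kb with it and had a ratio of 0.06 (SE 0.11). Lef1 overlaps Gm43352 and Gm42449, which had 1 and 0 reads over both libraries. Such counts hold allele-assigned reads only, and absence of RNA was not tested.

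The other genes of the pathway were taken from a list of 118 symbols in 8 roles, of which 117 had a row and 93 were tested. Of these 93, 11 were higher from 129, 22 were higher from cas and 60 were not called. The called share of 35.5% compares with 43.7% of all tested genes, and the counts by role stand against 21.8% of all tested genes called in each direction. The median of the list was -0.04, against 0.00 for all tested genes. With 1 shared library size the split was 41 higher from 129 and 8 from cas.

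**Figure D4:**
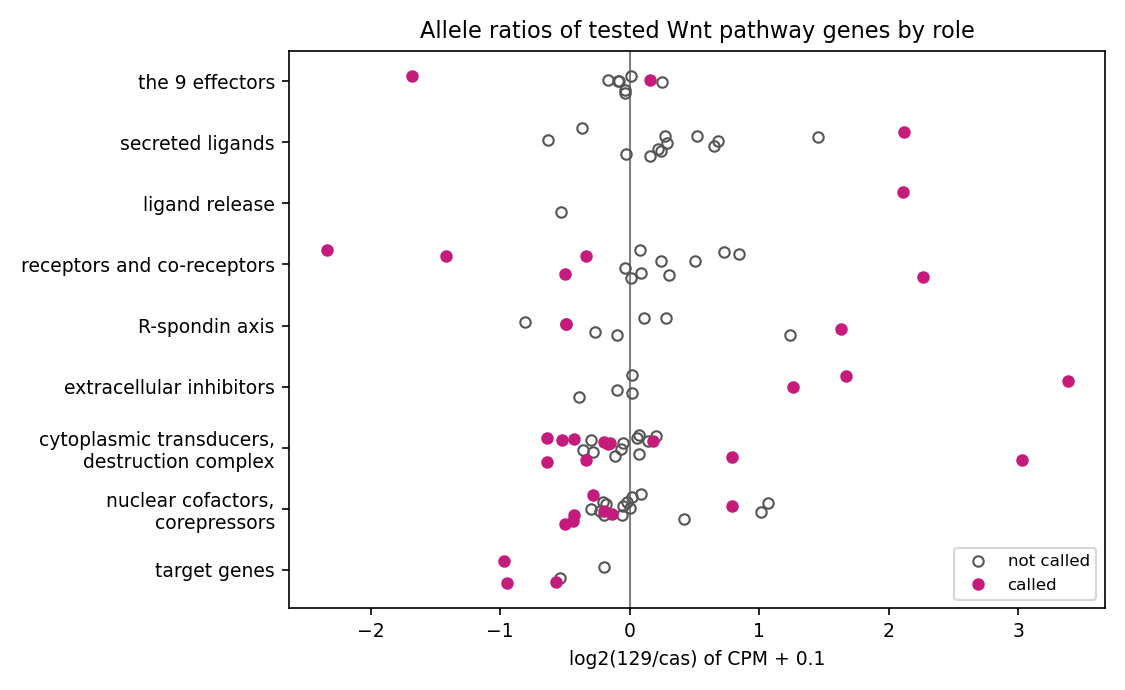
log2(129/cas) of CPM plus 0.1 (x axis) of the 9 effectors and of the 93 other tested Wnt pathway genes by role (y axis, points spread vertically for sight), filled where called. All 5 tested genes listed under the target role lie below 0, from -0.97 to -0.20. The called ligand, ligand release and inhibitor genes lie to the right. Targets listed under other roles, such as the effector Axin2 (-0.08), are not among the 5.

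Among the ligands, 1 of 13 tested genes was called, higher from 129, and the role's median was 0.27. The best covered ligands, Wnt5b and Wnt2b, had ratios of -0.37 (adjusted p = 0.054 in limma) and -0.03. Of the genes for ligand release, Wls, the carrier of Wnts to the cell surface, gave 438 and 576 reads for the 129 allele and 89 and 94 for cas, a ratio of 2.11 (SE 0.20). The X-linked acyltransferase gene Porcn had -0.53 without a call, with -0.96 in library 1 and -0.10 in library 2. Of 14 receptor genes, 1 was higher from 129 and 4 from cas. Ror1, a receptor for Wnt5a, was higher from 129 with 85.8% ± 0.43 of its reads (2.26, SE 0.13). Its paralog Ror2 was higher from cas, with 46.9% ± 0.26 of its reads from 129 (-0.50, SE 0.04), and the co-receptor gene Lrp6 had 0.01.

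Of the R-spondin axis, which sets receptor turnover, 1 of 9 tested genes was higher from 129 and 1 from cas. Znrf3, a ligase that removes Frizzled receptors, had -0.49 (SE 0.05), and the R-spondin receptor gene Lgr4 had -0.10 without a call. Of 7 extracellular inhibitors, 3 were higher from 129. Dkk3, a Dickkopf family gene, had 79.7% ± 6.39 of its reads from 129 (1.67, SE 0.21), while the best covered members Sfrp1 and Apcdd1 had -0.10 and 0.02. Wls, Ror1 and Dkk3 were higher from 129, as were 21.8% of all tested genes and 11 of 13 tested fibroblast markers. Of 9 tested primitive endoderm markers, 4 were higher from 129 and 2 from cas. Of 9 tested ES cell markers, 1 was higher from 129 and 4 from cas. The part of feeder RNA in the ratios of Wls, Ror1 and Dkk3 was not tested.

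Of 22 genes listed under cytoplasmic transducers and destruction complex, 3 were higher from 129 and 8 from cas, with a median of -0.13. The role as listed also holds a gene of the cell surface, which is among the 8. Btrc, the ligase subunit that marks phosphorylated β-catenin, gave 4088 and 4935 reads for the 129 allele and 5026 and 6195 for cas, a ratio of -0.64 (SE 0.05). Dvl3, a Dishevelled gene, had the same ratio of -0.64 with a larger SE of 0.24, from -0.34 in library 1 and -0.95 in library 2. Its call (adjusted p = 0.026 in limma) was lost with 1 shared library size (0.28), with deposited column totals (0.06), without pairing the alleles by library (0.11) and in the exact binomial test (0.097). Tnks, a tankyrase that destabilises Axin, had -0.20 (SE 0.04), and the kinase gene Csnk1e was higher from 129 with 0.79 (SE 0.20). Of 21 nuclear cofactors, 1 was higher from 129 and 6 from cas. The Groucho-type corepressor gene Tle4 had -0.20 (SE 0.04) and its short relative Aes 0.79 (SE 0.26). The deacetylase gene Hdac1 had -0.50 (SE 0.09) and Tbl1xr1 -0.14 (SE 0.04). Tnks, Tle4 and Tbl1xr1 turned positive with 1 shared library size. They were then called higher from 129 (adjusted p = 0.027, 0.006 and 0.00024 in limma). Without pairing the alleles by library, Tnks, Tle4, Tbl1xr1 and Aes lost their calls (adjusted p = 0.15, 0.17, 0.34 and 0.058 in limma). Hdac1 lost its call with 1 shared library size (adjusted p = 0.11 in limma).

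Of 12 listed target genes, 5 were tested, of which 3 were higher from cas, against 21.8% of all tested genes, and 2 were not called, with a median of -0.57 (-0.40 in library 1 and -0.74 in library 2). Ccnd1, the cyclin D1 gene, gave 250 and 262 reads for the 129 allele and 342 and 456 for cas (-0.95, SE 0.17). Bambi, a pseudoreceptor gene, had -0.97 (SE 0.28), and Tnfrsf19 -0.57 (SE 0.13), whose call was lost with 1 shared library size (adjusted p = 0.11 in limma). Fgf4 had -0.20 without a call and was 0.13 with 1 shared library size. The list gives each gene 1 role and was made with earlier results of these data known. Targets listed under other roles, such as Axin2 among the effectors (-0.08, not called), are not counted here.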

How the data were processed

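Strand-specific nuclear RNA libraries were sequenced as 100 bp pairs and merged with earlier reads, per the labels' protocols. Bowtie2 and build mm10 are named in the submitters' processing notes. For the counting program, SNP set, annotation and use of strand: not given in the sources used here. Per the file headers the columns hold counts, but the deposited numbers are RPKM: value times length in kb summed to 999994.2, 999966.7, 999996.2 and 999972.2, and 100.0% of values gave whole reads within 0.01 read. The deposited lengths do not follow the annotated spans (Pearson r of logs -0.02 over 46410 matched rows), so deposited RPKM were not compared between genes. The recovered reads were scaled to CPM by trimmed means of M values, with 0.1 added, and log2 values were fitted with limma 3.58.1 in R 4.3.3 (trended variances, prior degrees of freedom 88.7), with terms for library (a replicate block, since the alleles share 1 library) and allele, the latter tested. The deviations of the alleles of a library had a Pearson r of 0.094 over 15509 genes and of 0.585 over the 7265 with at least 1000 reads. For female cells, the 1570 Y-linked rows were dropped. The code was tested on simulated data. Spans come from GENCODE M21 and promoters from RefSeq GRCm38.p6. Members and gene lists were chosen with earlier results of these data known. The genes named were the effectors, their overlapping and nearest tested genes and, in each role of the pathway list, the 2 with most reads and up to 2 called genes of largest ratio with at least 100 reads in each library. The values of 2 of the nearest genes are not reported here. The genes within 500 kb of Lef1 were added after their values were seen. Alternatives, with their effects given at the end, changed the scaling, pseudocount, filter, block, variance trend, test and libraries.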

Additional observations from a re-analysis of the deposited data

How the results depend on the processing

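The ratio of Lef1 kept its direction under all 11 alternatives (-1.74 to -1.36) and its call in each that gave a test, except with no variance trend, where it was -1.68 with an adjusted p of 0.052 in limma. The adjusted p of Lef1 in limma ranged from 5.7e-156 to 0.052. In the exact binomial test it was too small to be computed exactly. Tcf7l2 lost its call with no filter beyond 1 read (adjusted p = 0.055 in limma), with no replicate block (0.39) and with no variance trend (0.41). These settings could not move its ratio of 0.16. With 1 shared library size, Tcf7l1 was 0.24, Ctnnb1 0.29, Axin2 0.24, Apc 0.28 and Gsk3b 0.15, all reversed, and Gsk3a gained a call at 0.58. With deposited column totals, Tcf7l1 was 0.01, Ctnnb1 0.07, Axin2 0.02 and Apc 0.06. Tcf7l1 (-0.09) and Gsk3b (-0.17) gained calls in the exact binomial test, which allows for counting error only. Among the pathway genes and neighbours named above, those that reversed with 1 shared library size were Wnt2b (0.29), Lgr4 (0.23), Sfrp1 (0.23), Tnks (0.12), Tle4 (0.12), Tbl1xr1 (0.19), Fgf4 (0.13), Hadh (0.18), Kcmf1 (0.02), Rpl14 (0.14), Rgs9 (0.32), Epb41l4a (0.31), Erf (0.06) and Rpl34 (0.05). Wnt2b (0.07), Rgs9 (0.09) and Epb41l4a (0.09) also reversed with deposited column totals. Those that gained calls with 1 shared library size were Lrp6 (0.34), Trak1 (0.33), Apcdd1 (0.35), 4930552P12Rik (0.63), Srp19 (0.69) and Gm26551 (0.38). The reversed genes Lgr4, Sfrp1 and Epb41l4a, not called on the main scale, were then called higher from 129. So were Tnks, Tle4 and Tbl1xr1, which were called higher from cas on the main scale. 4930552P12Rik also gained a call with deposited column totals (0.40), and Jade2 with size factors from medians of ratios (-0.35). In the exact binomial test, Wnt5b, Rpl14 and Zfp526 gained calls. A change of scaling shifts all genes by nearly the same amount.

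Calls over all genes were 3388 higher from 129 and 3383 from cas. They became 6505 and 1492 with 1 shared library size, 2136 and 1771 with no replicate block, and 290 and 166 with no variance trend. Tnks (-0.10), Tbl1xr1 (-0.03) and Rpl34 (-0.17) also lost their calls with deposited column totals, and Rpl34 with no filter beyond 1 read. For the pathway list, 11 and 22 became 41 and 8 with 1 shared library size, 7 and 11 with no replicate block, and 1 and 0 with no variance trend. At least 100 reads in each library left 6 higher from 129. Its median of -0.04 became 0.28 with 1 shared library size, 0.06 with deposited column totals, -0.02 with no filter and -0.10 with at least 100 reads, and lay between -0.07 and -0.04 when 1 library was left out. With 1 library alone there was no test. The effectors then ranged from -1.74 to -1.61 for Lef1, -0.03 to 0.07 for Tcf7, -0.09 to -0.07 for Tcf7l1, 0.09 to 0.24 for Tcf7l2, -0.07 to 0.01 for Ctnnb1, -0.08 to -0.07 for Axin2, -0.06 to -0.01 for Apc, -0.17 to 0.69 for Gsk3a and -0.21 to -0.13 for Gsk3b. The causes of these changes were not tested. Tcf7, Axin2 and Gsk3a had the fewest reads, with 161 to 401 in a library, and the libraries of Gsk3a also differed beyond counting error.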
